A study of Mus musculus with 24 samples.

Results

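Kidneys of mice 20 weeks old were compared with kidneys of mice 10 weeks old, all of the genotype Mop3fxfx and without Cre. Mop3 is another name of Arntl (Bmal1), the transcription factor without which the circadian clock stops, and in these mice its gene is flanked by loxP sites and left in place. The comparison holds 12 of the 24 arrays of the series, 6 of each age, chosen by their titles alone. The other 12 arrays come from Mop3fxfxCreAlb mice of the same ages, which also carry Cre recombinase under the albumin promoter, a promoter of hepatocytes. All mice were of strain C57Bl/6J, ate and drank freely and lived under 12 h of light and 12 h of darkness. Each array holds a pool of kidney RNA from at least 3 mice killed at one of 6 zeitgeber times (ZT, hours after lights on), from ZT0 to ZT20 at steps of 4 h. There is 1 pool per age and time, so the ages were paired by time of day, and an n of 6 counts pools and not mice.

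The kidney of a young adult mouse is mostly proximal tubule, which takes back amino acids, phosphate and glucose and secretes organic anions and drugs through transporters of the solute carrier families. Several of these transporters and of the enzymes beside them differ between males and females and follow sex hormones. The kidney also lies in fat at the hilum and under the adrenal gland, and in mice some of that fat is brown: it burns lipid for heat through the uncoupling protein Ucp1.

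Each array carried 2 dyes, Cy5 and Cy3, and every value below is log2 of Cy5 over Cy3 for a 60-base probe, or a difference of such values, 20 minus 10 weeks. The labels put the mouse pools in Cy3, and in Cy5 a reference of kidney RNA from all 10-week mice of both genotypes. Under these labels every sign given here turns. The files go against them in one measurement: transcripts that follow the time of day did so in Cy5. For Arntl the 10-week arrays spanned 2.65 log2 units in Cy5 and 0.33 in Cy3, for the clock output gene Dbp 3.50 and 0.18. Across the 20 core clock genes the Cy5 span was the larger for 19 of them at 10 weeks and for 19 at 20 weeks. "Higher" and "lower", and "rose" and "fell" for what passed the test, therefore mean only that Cy5 over Cy3 was higher or lower at 20 weeks.

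The ages lay on different slides. The 10-week pools filled parts of 2 slides (ZT0 and ZT4, then ZT8 to ZT20), and the 20-week pools parts of 3 (ZT0, then ZT4 with ZT12, then ZT8 with ZT16 and ZT20). No slide held both ages, so a difference between ages and one between slides cannot be told apart. Slide was entered as a random block as an alternative. That allows for likeness of arrays within a slide but cannot separate slide from age. The share of probes above background ran from 60.0% to 78.7% in Cy3 and from 65.1% to 92.3% in Cy5. Kidney markers were present: all 12 genes of the list for the first segments of the proximal tubule were measured well above background in both dyes.

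Some 20-week arrays stood apart before any gene was tested. The ratio of Xist, the RNA that silences an X chromosome in female cells, was 5.93 at 20 weeks ZT4 and 3.24 at ZT12, and lay between -0.13 and 0.17 on the other 10 arrays. Another Xist probe gave 2.80 and 1.55 on the same arrays. The growth factor gene Igf2 followed them, with 3.1 at ZT4, 1.38 at ZT12 and 0.55 at ZT16 against -0.20 to -0.10 elsewhere. The ZT4 and ZT12 arrays shared a slide and had 243 and 249 spots excluded as outliers, against 2 to 17 on the other floxed arrays. The other arrays on that slide, of Mop3fxfxCreAlb mice at 20 weeks ZT8 and ZT12, had 179 and 149. Their ratios of Xist in the first probe were 0.37 and 0.10. Of the Y-linked genes Ddx3y, Eif2s3y, Kdm5d and Uty none passed the test (differences of 0.24, -0.18, 0.02 and -0.00). Their mean Cy5 level was 8.85 on the 20-week ZT4 array and between 9.44 and 9.77 on the other 11, and their mean ratio was lowest there too, at -0.28. The mice's sex is not in the labels, and the part of these arrays in the results was not tested beyond leaving out both times, which is given where it changes a call.

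Another feature lay in the probes themselves. Many of the largest rises at 20 weeks belonged to probes that hold a stretch of the repeat CCCTAA, the C-rich strand of the telomere repeat. 3 pairs of probes show it, each for one gene, with the stretch in capitals where there is one; the first of each pair holds it.
Ppp1r14c, with the stretch: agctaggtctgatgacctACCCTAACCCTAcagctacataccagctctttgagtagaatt
Ppp1r14c, without: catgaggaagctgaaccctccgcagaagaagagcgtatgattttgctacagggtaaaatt
Eml6, with the stretch: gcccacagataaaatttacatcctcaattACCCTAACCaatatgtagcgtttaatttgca
Eml6, without: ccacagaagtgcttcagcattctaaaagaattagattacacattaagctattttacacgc
Zfp422-ps, with the stretch: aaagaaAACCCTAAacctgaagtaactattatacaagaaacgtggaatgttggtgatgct
Zfp422-ps, without: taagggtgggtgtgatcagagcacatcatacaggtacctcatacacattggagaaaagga
The Ppp1r14c probe with the stretch lay between -0.28 and 0.08 on the 10-week arrays and climbed to 5.39 at 20 weeks ZT20. Its partner fell instead, from a median of 0.48 to -0.24. The Eml6 probe with the stretch reached 4.82 on the same ZT20 array, where its partner stood at 0.05. For Zfp422-ps the values there were 4.90 and -0.05.

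Probes of other genes hold runs of different length at different places. The next ones, chosen after their values were seen, are of the transcription factor Creb3l3, the ubiquitin ligase Trim68 and the chaperone Dnajb8, and then of Zfp317 and Abat, which carry the G-rich strand of the same repeat.
Creb3l3: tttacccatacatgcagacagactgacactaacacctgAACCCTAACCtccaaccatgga
Trim68: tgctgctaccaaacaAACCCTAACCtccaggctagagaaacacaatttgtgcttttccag
Dnajb8: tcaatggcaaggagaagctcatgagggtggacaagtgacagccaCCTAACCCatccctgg
Zfp317: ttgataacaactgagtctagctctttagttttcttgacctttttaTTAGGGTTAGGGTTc
Abat: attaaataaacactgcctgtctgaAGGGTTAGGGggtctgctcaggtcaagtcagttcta
On the 20-week ZT20 array the ratio was 4.61 for Creb3l3, 3.81 for Trim68 and 5.02 for Dnajb8, against -0.31 for Zfp317 and 0.26 for Abat. Of 41174 probes, 135 held an unbroken stretch of at least 8 bases of the C-rich repeat in any phase. With exactly 8 bases (103 probes) the median ratio at 20 weeks was 0.06 at ZT0, 0.43 at ZT4, 0.60 at ZT8, 0.63 at ZT12, 1.32 at ZT16 and 1.89 at ZT20. With 10 to 12 bases (10 probes) it was 1.77 at ZT16 and 3.51 at ZT20. For the 89 probes with at least 8 bases of the G-rich strand the median lay between -0.038 and 0.033 on the 12 floxed arrays. For the 10 of these with 10 to 12 bases it lay between -0.053 and 0.014 at 10 weeks. At 20 weeks it lay between 0.003 (ZT20) and 0.245 (ZT8). The rise was in Cy5, where the median level of the 135 probes went from between 7.57 and 7.92 at 10 weeks to 11 at 20 weeks ZT20, while Cy3 stayed between 7.28 and 7.85.

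**Figure D1:**
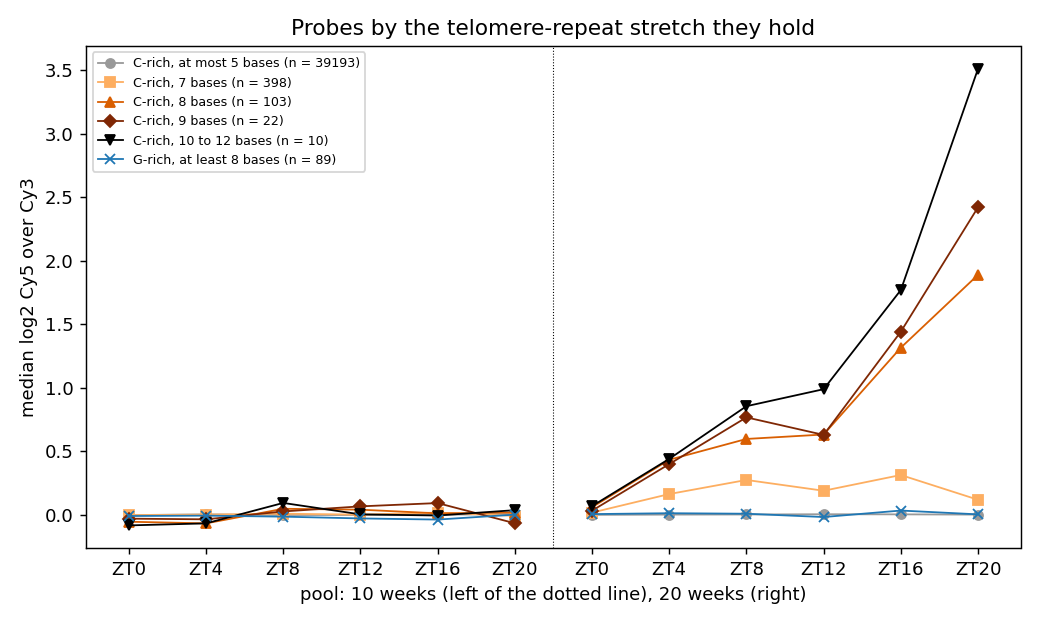
Median log2 Cy5 over Cy3 (y axis) of probes grouped by the length of the longest stretch of the C-rich telomere repeat they hold, on each of the 12 floxed arrays (x axis: age and zeitgeber time). Groups with 8 or more bases rise at 20 weeks, most at ZT16 and ZT20, and probes with the G-rich strand stay near 0.

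Of the 225 genes that were over 2-fold higher, 104 (46.2%) were read by a probe with a stretch of at least 6 bases and 42 (18.7%) by one of at least 8. Of all 18409 genes tested these shares were 5.37% and 0.483%. None of the 27 genes over 2-fold lower had one. In 56 genes that had probes of both kinds (at least 8 bases, and under 6), the probes with the stretch gave a median difference of 1.03 and those without 0.061, and the former was the higher in 49 genes. This was noticed in the data and is given as a description. It bears on the named genes: 9 of the 12 largest rises chosen by rule rested on such a probe (4930535E02Rik, Dnajb8, AK042446, 9630055L06Rik, Syt6, AK083849, ENSMUST00000103507, Eml6 and 4930567H12Rik). Their differences ran from 1.76 to 1.93 in size, all 9 peaked on the 20-week ZT20 array between 4.72 and 5.23, and with slide as a random block 2 of them kept an adjusted p under 0.05. Without the ZT16 pair, or without both the ZT4 and ZT12 pairs, all 9 lost their call. No rise of these 9 genes is described further.

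Over all genes, the ages differed widely but mostly by little. Of 18409 genes, each read by its brightest probe, 8024 (43.6%) passed an adjusted p of 0.05 in limma, 3805 (20.7%) higher and 4219 (22.9%) lower. The median size of a difference was 0.21 log2 units. Tested against 0.5 log2 units with limma's treat, 9 genes passed, among them Cidea, Slc22a26, Asns, Apob and Slc7a12. Over 2-fold were 225 genes higher (1.22%) and 27 lower (0.147%), 252 in all, and 166 without the ZT12 pair, 149 without the ZT16 pair and 150 without probes with a repeat stretch. The 6 arrays of one age lay entirely above the 6 of the other for 3680 genes (20%), and 6811 (37%) moved one way in 6 of 6 time pairs. Left without the ZT4 and ZT12 pairs, which hold the arrays with Xist signal, the count was 2443 (13.3%), and without the ZT16 and ZT20 pairs it was 6971 (37.9%). Without loess, with each array only centred on its median, 5528 genes passed, 974 higher and 4554 lower, and the median of all genes was -0.125 against -0.00784. Under that scaling 763 called genes turned their sign, every one of them among the higher ones.

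Each dye alone gave fewer or other calls. In Cy5 alone 3223 genes passed (17.5%), 1470 higher (7.99%) and 1753 lower (9.52%). In Cy3 alone, 5088 did (27.6%). Genes whose ratio and Cy5 passed with one sign and whose Cy5 difference was the larger, called Cy5-led here, were 916 higher (4.98%) and 985 lower (5.35%). Another 3531 genes (19.2%) passed in the ratio with the larger difference in Cy3. With slide as a random block the single dyes lost every call (0 in Cy5 and 0 in Cy3 by limma, with 2822 and 1994 genes at an unadjusted p under 0.05), while the ratio kept 6583 (35.8%). Scaled by each array's median in place of quantiles, Cy5 called 68 genes and Cy3 88. Without single pairs the Cy5 count ran from 1118 (without ZT12) to 3270, and was 1180 without ZT8, 1262 without ZT16 and 1724 without ZT0. The Cy3 count ran from 3165 (without ZT16) to 6203, and was 3217 without ZT8 and 3268 without ZT20.

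**Figure D2:**
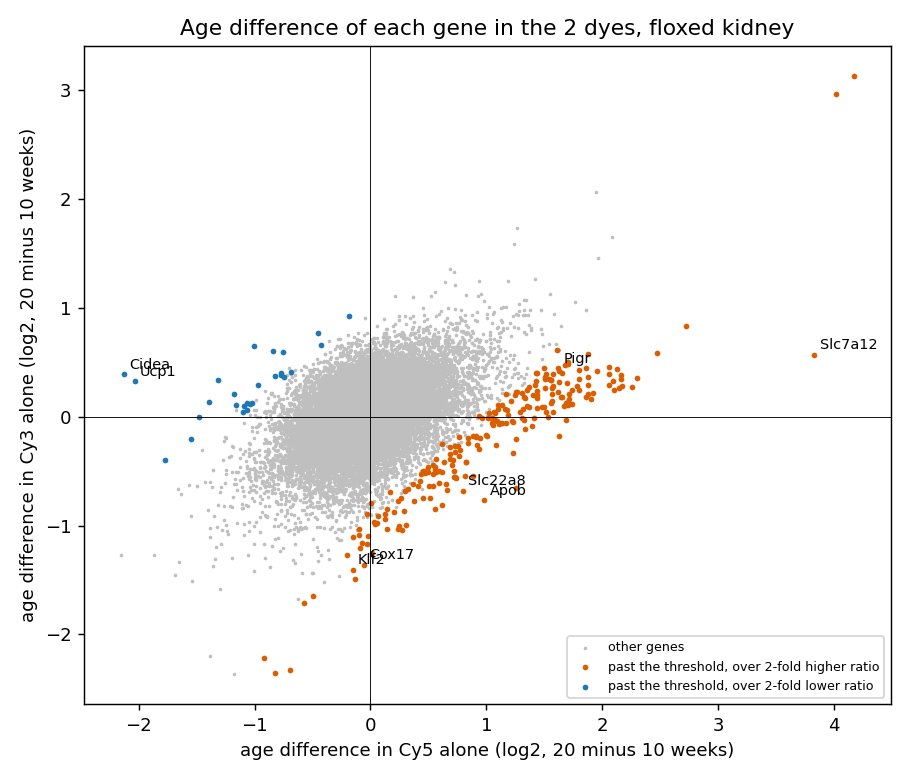
Age difference (20 minus 10 weeks, log2) of 18409 genes in Cy5 alone (x axis) and Cy3 alone (y axis), 1 point per gene; genes past the threshold in the ratio and over 2-fold are coloured by direction. Slc7a12, Cidea and Ucp1 lie far out along the Cy5 axis, and Cox17 and Klf2 along the Cy3 axis.

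The largest falls were genes of fat. Cidea, a lipid-droplet protein of brown fat, and Ucp1 were on average over 4-fold lower at 20 weeks, were lower at all 6 times and differed mainly in Cy5. Of the 9 adipocyte markers measured, 7 fell and 1 rose, and of the 8 brown adipocyte markers 4 fell and 2 rose, against 22.9% and 20.7% of all genes. In Cy5 alone 3 adipocyte markers passed lower and 1 higher, and 2 brown markers lower and 1 higher, against 9.52% and 7.99% of all genes. In Cy3 alone 0 adipocyte markers passed lower and 4 higher, and 1 brown marker lower and 2 higher. The adipocyte list had a median difference of -0.68 in Cy5 and 0.32 in Cy3. Cidea lay between -0.54 and 0.96 (median -0.43) on the 10-week arrays and between -3.14 and -1.60 (median -2.20) on the 20-week arrays, with no overlap. The difference was -2.26 ± 0.18 (SE, n = 6 pairs; adjusted p = 0.000701 in limma), of which -2.13 was in Cy5 and 0.39 in Cy3. Ucp1 lay between -0.79 and 0.07 (median -0.05) at 10 weeks and between -3.13 and -1.35 (median -2.62) at 20 weeks, again with no overlap. It fell by 2.21 ± 0.25 (SE; adjusted p = 0.000906). Cox8b, a cytochrome oxidase subunit of muscle and brown fat, fell by 1.31 ± 0.21 with groups that overlapped, from -0.20 to 1.28 at 10 weeks and from -1.84 to 0.71 at 20 weeks.

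White fat markers moved with them. Cfd, the serum protease adipsin, spanned -1.14 to 1.81 at 10 weeks and -2.54 to -0.33 at 20 weeks, so the ages overlapped, and fell by 1.56 ± 0.43 (SE; adjusted p = 0.018). The lipid-droplet coat genes Plin1, Plin4 and Cidec fell by 0.79, 0.84 and 0.89. The fatty acid binding protein Fabp4 fell by 0.54, the hormone resistin (Retn) by 0.64 and the carbonic anhydrase Car3 by 0.88. The exception was Lipe, hormone-sensitive lipase, which rose by 0.29 ± 0.08 (adjusted p = 0.0153). The adipokine gene Adipoq was lower by 0.52 with an adjusted p of 0.0675 and did not pass, and Lep was too dim to test. Among the brown markers Dio2, which activates thyroid hormone, fell by 0.35, and the coactivator Ppargc1a and the fatty acid transporter Slc27a1 rose by 0.57 and 0.67, both genes that kidney tubules express too. With median centring neither passed (0.18 and 0.34), and the brown list had 0 higher and 5 lower. The median over its probes was 0.31 for Slc27a1, which did not pass. Cox7a1 (-0.23) and Fabp3 (0.02) did not pass, and Elovl3 and Otop1 were too dim to test. The mean Cy5 level of the adipocyte list ran from 9.71 to 10.6 at 10 weeks and from 9.01 to 10.2 at 20 weeks, where the ZT4 array was the highest. In pooled tissue a change in the number of fat cells and one in RNA per fat cell cannot be told apart, and under the dyes of the labels these fat genes would be higher, not lower, at 20 weeks. Without the ZT4 and ZT12 pairs 4 of the adipocyte markers passed lower and 0 higher, and with median centring 7 lower and 0 higher. Single pairs decided some of the calls in limma: Cfd did not pass without ZT12 (-1.42, adjusted p = 0.0623), nor Lipe (0.24, adjusted p = 0.0541) or Slc27a1 (0.61, adjusted p = 0.0518). Car3 did not pass without ZT0 (-0.72), ZT4 (-0.80) or ZT12 (-0.71). Without both the ZT4 and ZT12 pairs Retn (-0.67) and Dio2 (-0.36) did not pass either, with adjusted p of 0.0955 and 0.092, nor did Cfd (-1.58), Car3 (-0.57), Lipe (0.27) or Slc27a1 (0.51).

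**Figure D3:**
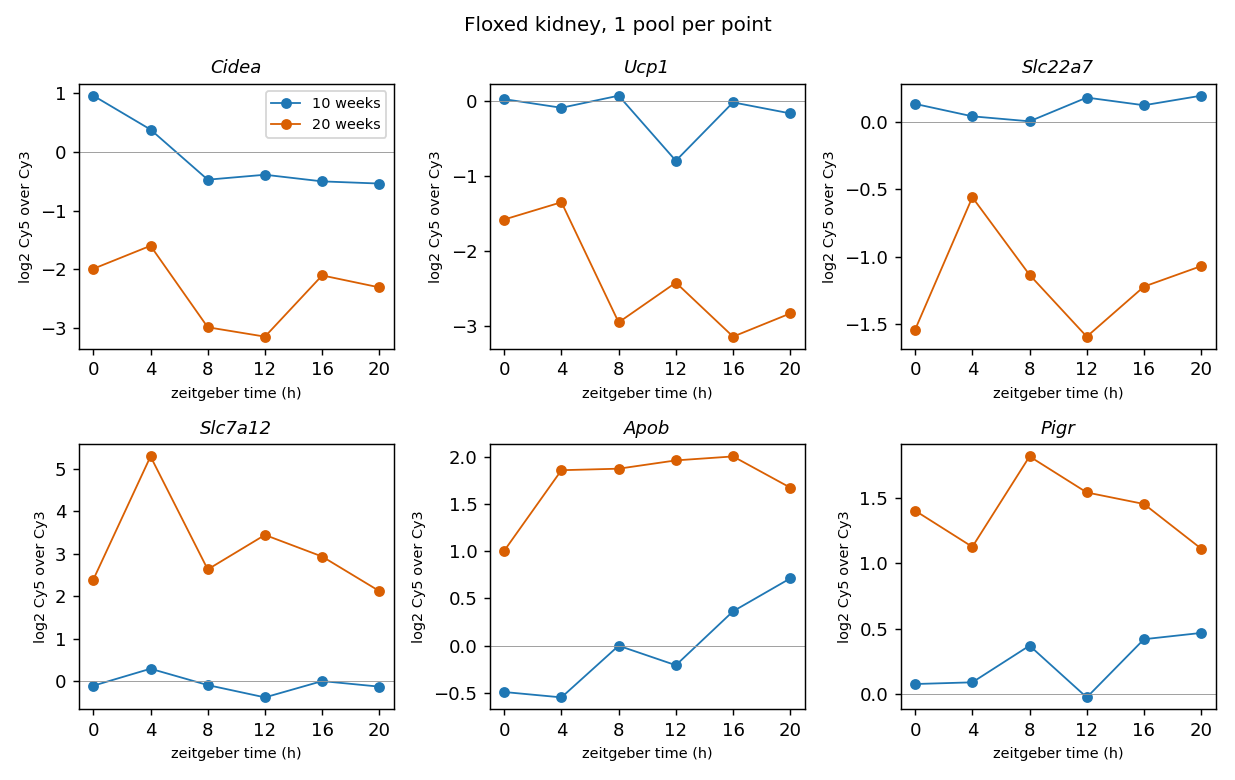
Log2 Cy5 over Cy3 (y axis) by zeitgeber time in hours (x axis) for Cidea, Ucp1, Slc22a7, Slc7a12, Apob and Pigr, 1 point per pool, 10 weeks in one colour and 20 weeks in the other. At all 6 times the 20-week point lies below the 10-week point for Cidea, Ucp1 and Slc22a7 and above it for Slc7a12, Apob and Pigr, and the 20-week ZT4 point of Slc7a12 stands at 5.30.

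Outside fat, the largest falls belonged to genes of different kinds. With loess the lists of proximal tubule genes did not fall with them: of 10 genes of the last segment 4 passed higher and 2 lower, against 20.7% and 22.9% of all genes. With median centring 0 of the 10 passed higher and 5 lower, with a median of -0.56. In Cy5 alone 1 passed higher and 3 lower. Slc22a26, an organic anion transporter of kidney, went from a median of 0.42 (lowest -0.06, highest 0.69) to -1.16 (-1.38 to -0.86), with no overlap. Its fall was 1.53 ± 0.12 (SE; adjusted p = 0.000701). Slc22a7, the transporter OAT2, went from 0.13 (0.01 to 0.20) to -1.18 (-1.59 to -0.56) and fell by 1.30 ± 0.14 (adjusted p = 0.000803). Its younger pools spanned 0.19 log2 units and its older pools 1.03. Asns, which makes asparagine, fell by 1.37 ± 0.09, from 0.60 (0.44 to 0.86) to -0.76 (-1.03 to -0.50), with 0.60 in Cy3. Car15, a membrane-bound carbonic anhydrase, fell by 1.31, and Aoc1, the diamine oxidase that breaks down histamine and putrescine, by 1.27. Mfsd2a, a carrier of lysophospholipids, fell by 1.15, the lipase inhibitor Angptl4 by 1.12, the secreted glycoprotein Ahsg, a hepatocyte marker, by 1.18 and the centrosome gene Ninl by 1.12. All of these were lower in 6 of 6 pairs, as the rule that named them asks. None turned with the scaling, which turned no called fall of any gene. Cryaa, alpha-crystallin, fell by 1.25 in its brightest probe, and its other one did not pass (-0.0043).

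Genes with several probes that all fell in the ratio and in Cy5 were few, 23 against 35 that all rose. Among them Aqp7, a water and glycerol channel of proximal tubule and fat, fell by 1.02 in one probe and by 1.09 in the other. The adaptor gene Pheta1 fell by 0.75, Msantd3 by 0.85, Lratd1 by 0.62, 4921524J17Rik by 0.70 and the acyltransferase Agpat4 by 0.58 in their brightest probes. In 5 of these 6 genes the ages did not overlap in any probe, against 20% of all genes by their brightest probe. The 6 were named for the size of their smallest difference, which makes overlap less likely. In Lratd1 the ages overlapped, and it did not pass without the ZT4 and ZT12 pairs (-0.64, adjusted p = 0.077).

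The largest rise that did not rest on a repeat stretch was Slc7a12, an amino acid transporter of the kidney that is higher in females. Its probe is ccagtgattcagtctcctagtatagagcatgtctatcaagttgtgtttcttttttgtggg, which holds no such stretch. On the 10-week arrays it lay between -0.38 and 0.30 (median -0.10), and on the 20-week arrays between 2.12 and 5.30 (median 2.79). The rise was 3.21 ± 0.32 log2 units, 9.23-fold (SE; adjusted p = 0.000725), with 3.83 in Cy5 and 0.57 in Cy3. The highest pool was ZT4 and the next, at 3.45, ZT12, the arrays with Xist signal. Without these times the rise was 2.60 (adjusted p = 0.00917). Of the 7 genes listed as higher in female mouse kidney 4 rose and none fell, against 20.7% and 22.9% of all genes, and with median centring 2 were higher and 1 lower. The prolactin receptor Prlr rose by 0.52 in its brightest probe and by 1.01 and 0.76 in the others. Cyp4a14, a fatty acid hydroxylase, rose by 1.25 ± 0.27, with 2.08 at ZT4 and at most 0.54 at the other times of 20 weeks. Timd2 rose by 0.40, and had a difference of -0.06 with arrays only centred on their medians; it did not pass without the ZT12 or the ZT16 pair (0.36 each). Without both the ZT4 and ZT12 pairs neither Timd2 (0.46) nor Cyp4a14 (0.88, adjusted p = 0.0639) passed. The transporter Abcc3 had its highest values on the Xist arrays too, 1.32 and 0.49, against at most 0.21 on all others, and did not pass (0.03). Of 13 androgen-responsive kidney genes 3 rose and 4 fell, near the shares of 20.7% and 22.9% over all genes, and with median centring 0 were higher and 6 lower. Cyp7b1 fell by 0.98 ± 0.11 and Cyp2j13 by 0.55 in its brightest probe (median over its probes -0.18, which did not pass), while Cyp4b1 rose by 0.95, with -0.03 in Cy5 and -0.80 in Cy3, and did not pass with median centring (0.10).

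Further rises held at all times. Apob, the structural protein of lipoproteins, rose by 1.76 ± 0.17 (SE; adjusted p = 0.000706), from between -0.55 and 0.71 (median -0.11) to between 1.0 and 2.0 (median 1.87), with no overlap. Its other 3 probes rose by 1.51, 0.38 and 0.29. Slc22a8, the organic anion transporter OAT3, rose by 1.5 ± 0.18, from a median of -0.99 (-1.42 to -0.53) to 0.53 (-0.08 to 0.71), and its other probes by 1.28 and 0.94. In Cy5 and Cy3 the differences were 0.98 and -0.77 for Apob and 0.80 and -0.68 for Slc22a8. Of the 20 organic ion transporters measured, 6 passed higher and 3 lower, against 20.7% and 22.9% of all genes. OAT3 was among the former and OAT2 among the latter. With median centring 1 passed higher and 8 lower. The transcript AF152371 rose by 1.83 ± 0.27.

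A stricter look kept Cy5-led genes that moved one way in 6 of 6 pairs, with no repeat stretch of 6 bases in the probe. Their ratio also passed with slide as a random block, and without either the ZT4 and ZT12 or the ZT16 and ZT20 pairs. It kept its sign when arrays were only median centred. Cy5 alone was not asked to pass with slide as a random block, where it called 0 genes. These conditions were set after the values were seen, and of 18409 genes 267 rises and 400 falls met them. The sign condition could remove only rises, since all 763 called genes that turned were among the higher ones. The 2 counts are therefore not compared. Besides Slc7a12, Apob and Slc22a8, the following genes are named from these rises for what they do. Pigr, the receptor that carries antibodies across epithelia, went from a median of 0.23 (-0.02 to 0.47) to 1.43 (1.11 to 1.82) and rose by 1.17 ± 0.12. Papss2, which makes the sulphate donor of the cell, rose by 1.26 ± 0.12, and Idh1, the isocitrate dehydrogenase of the cytosol, by 1.30 ± 0.13. In Cy5 and Cy3 the differences were 0.92 and -0.26 for Papss2 and 0.65 and -0.61 for Idh1, and Pigr had 1.62 and 0.44. Gnas, the stimulatory G protein of hormone receptors, rose by 1.30 ± 0.18 and Gnpda1, an enzyme of amino sugar breakdown, by 1.29 ± 0.16. Here too a large part of the ratio's difference lay in Cy3, with 0.73 in Cy5 and -0.56 in Cy3 for Gnas and 0.72 and -0.56 for Gnpda1. For each of these 5 genes, chosen after their values were seen, the 6 pools of 20 weeks lay above the 6 of 10 weeks. Over all genes the ages lay apart, in either direction, in 20%.

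The transport and metabolism lists leaned to higher ratios with loess and to lower ones when arrays were only median centred, so no direction is given for them as lists. Over all 18409 genes 20.7% passed higher and 22.9% lower with loess. With median centring 974 of them passed higher and 4554 lower. Of 15 amino acid transporters 9 passed higher and 1 lower with a median difference of 0.36, and with median centring 1 higher and 4 lower with -0.10. Besides Slc7a12, Slc7a9 (0.83), a subunit of the cystine transporter, and Slc6a18 (0.74), a glycine transporter, rose, with 0.22 and 0.20 under median centring, where neither passed, and Slc36a2 fell by 0.60. Of 12 markers of the first proximal tubule segments 7 were higher and 1 lower (median 0.34), and with median centring 1 higher and 4 lower (median -0.39). The lactate transporter Slc5a12 rose by 0.71, which did not pass with median centring (0.28) or without the ZT4 and ZT12 pairs (0.64), and the phosphate transporter Slc34a3 fell by 0.63. Of 20 genes of fatty acid oxidation 10 were higher and 2 lower (median 0.31), and with median centring 1 higher and 4 lower (median -0.24). There Cyp4a10 rose by 1.19, with -0.03 in Cy5 and -1.17 in Cy3, and the carnitine carrier Slc25a20 by 0.61. Cpt1a, which admits fatty acids to mitochondria, rose in both probes, by 0.68 in the brighter, and had -0.0081 with median centring. Of 19 genes of glutathione and drug conjugation 9 were higher and 1 lower (median 0.30), and with median centring 0 higher and 5 lower (median -0.29). The glutathione transferases Gsta2 and Gsta1 rose by 0.76 and 0.73 and the glutathione synthesis subunit Gclm by 0.57, and none of these passed with median centring (0.03, 0.11 and 0.22). Gsta1 also did not pass without the ZT4 and ZT12 pairs (0.52, adjusted p = 0.0593). Respiratory chain genes (9 higher and 3 lower of 22) had a median of 0.06, and ribosomal protein genes (3 higher and 0 lower of 20) one of 0.06, and with median centring -0.66 and -0.71, where 13 genes of each list passed lower and none higher.

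Single genes of the distal nephron differed both ways. Atp6v1b1, a proton pump subunit of intercalated cells, rose by 1.16 ± 0.11 and Car12, a carbonic anhydrase, by 0.98 ± 0.11, both with no overlap between ages. With median centring Car12 did not pass (0.49, adjusted p = 0.0574). Hsd11b2, the enzyme that shields the aldosterone receptor from glucocorticoid, rose by 0.82, with -0.34 in Cy5 and -1.01 in Cy3. The water channel Aqp3 fell by 0.38. Of 23 salt and water transport genes 10 passed higher and 4 lower, against 20.7% and 22.9% of all genes, and with median centring 0 higher and 7 lower. Without the ZT4 and ZT12 pairs neither Aqp3 (-0.33, adjusted p = 0.0634) nor Ace (0.37, adjusted p = 0.0541) passed. Of the vasoactive genes, angiotensinogen (Agt) fell by 0.51 ± 0.06 and the converting enzyme Ace rose by 0.48, with 0.15 and no call under median centring, and renin (Ren1) did not pass (-0.05).

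**Figure D4:**
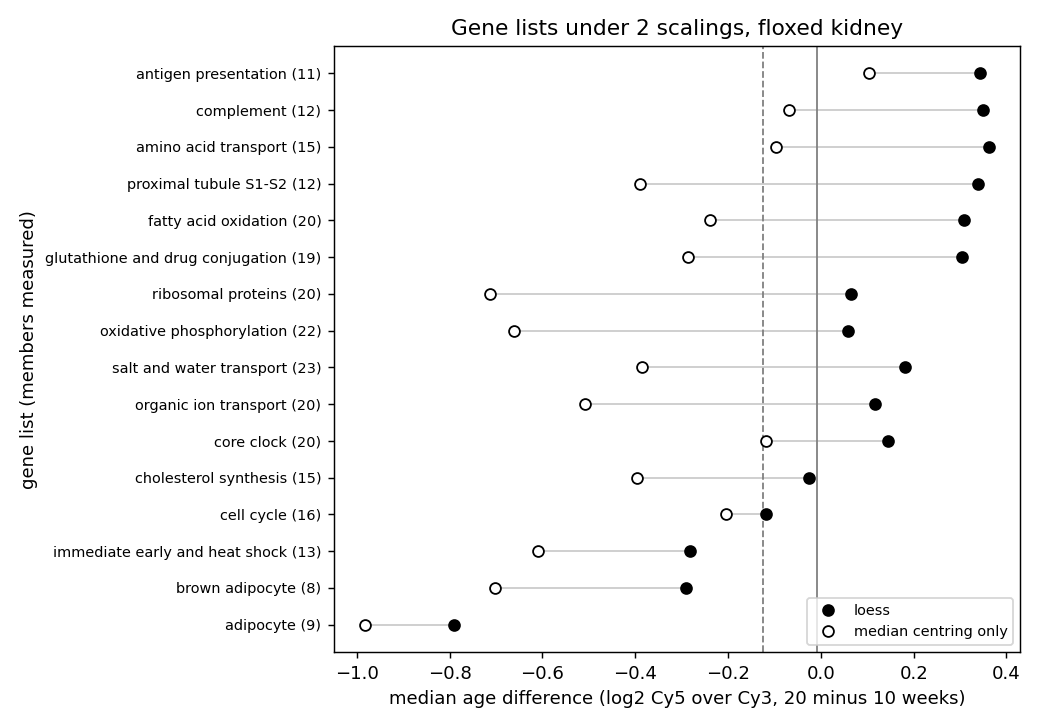
Median age difference (log2 Cy5 over Cy3, 20 minus 10 weeks, x axis) of the measured members of 16 gene lists (y axis), with loess (filled) and with each array only centred on its median (open); the grey lines mark the medians of all genes, -0.00784 and -0.125. The 2 fat lists are below 0 under both, antigen presentation is above 0 under both, and the transport lists and the lists of fatty acid oxidation, glutathione and respiratory chain genes change side.

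The immune lists differed in how many members passed with loess, most in antigen presentation and complement with 7 higher each. Of 14 interferon-stimulated genes 2 passed higher and 2 lower, of 6 T cell genes 1 and 1, of 8 macrophage genes 3 and 0, and of 3 neutrophil genes none, where the 10-week ZT16 array stood apart with a mean ratio of 1.82. Of 5 erythroid genes 2 passed higher and 0 lower, with a median of 0.46 that was -0.0016 with median centring. Over all genes the shares were 20.7% and 22.9%. Of 11 antigen presentation genes 7 passed higher and none lower, with a median of 0.34. With median centring the median was 0.10 and none of them passed in either direction. Without the ZT4 and ZT12 pairs 5 passed higher. Cd74, the invariant chain of MHC class II, went from a median of -0.68 (-1.20 to -0.28) to 0.39 (0.12 to 0.77) and rose by 1.12 ± 0.16 (SE; adjusted p = 0.00156), by 1.05 in Cy5. Its partners H2-Eb1 and H2-Ab1 rose by 0.78 and 0.70, and of the class I genes H2-D1 rose by 0.98 in its brightest probe, with -0.36 in Cy5 and -1.30 in Cy3. Under median centring the differences were 0.57 for Cd74, 0.41 for H2-Eb1, 0.10 for H2-Ab1 and 0.35 for H2-D1, with adjusted p from 0.147 to 0.748 in limma. The controller of class II genes, Ciita, did not pass (0.18). Of 12 complement genes 7 passed higher and 1 lower (median 0.35), and with median centring 1 higher and 2 lower (median -0.07). The inhibitor Serping1 rose by 0.79, C4b by 0.50 and C1s1 by 0.51. C1ra fell by 0.42 in its brightest probe and rose by 0.38 in its other one. Without the ZT4 and ZT12 pairs neither C1s1 (0.50, adjusted p = 0.0537) nor C1ra (-0.32) passed. Of the plasma cell genes the antibody joining chain Jchain rose in both probes, by 1.06 and 1.5, and the light chain transcript ENSMUST00000103416 by 1.28 and 0.70. The brightest probes of both had their highest 10-week value at ZT0, 0.86 and 0.91. Ms4a1 (0.27) and Mzb1 (0.15) did not pass. Of the 7 B and plasma cell genes 2 passed higher and none lower. The mean Cy5 level of that list ran from 8.17 to 8.55 at 10 weeks and from 8.27 to 9.05 at 20 weeks. Without the ZT4 and ZT12 pairs Jchain (1.03, adjusted p = 0.11) and ENSMUST00000103416 (1.22, adjusted p = 0.145) no longer passed. ENSMUST00000103416 also lost its call without the ZT8, ZT12, ZT16 or ZT20 pair (differences of 1.01 to 1.28).

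Stress genes, cell cycle genes and cholesterol synthesis genes differed in dye and direction. Of 13 immediate early and heat shock genes 6 fell and 1 rose, with a median of -0.28, against 22.9% lower and 20.7% higher over all genes, and without the ZT4 and ZT12 pairs 1 passed lower and 1 higher. The transcription factor gene Jun fell by 0.48, the chaperones Hspa1a and Hsp90aa1 by 0.70 and 0.72, and Hspa8 rose by 0.53 but had -0.23 with median centring. Hsp90aa1 did not pass without the ZT12 pair (-0.62, adjusted p = 0.0532), and without both the ZT4 and ZT12 pairs Hsp90aa1 (-0.59), Hspa1a (-0.65) and Jun (-0.45) did not pass. Fos (-0.21) and Egr1 (-0.18) did not pass, each with 1 high 10-week pool, at 0.87 and 1.53. Of 16 cell cycle genes 5 fell and 2 rose, not far from the shares over all genes. Their median was 0.11 in Cy5, where 2 passed lower and 0 higher, and 0.24 in Cy3, where 7 passed higher and 0 lower. Among those that fell in the ratio were the replication factors Mcm3 (-0.50 in its brightest probe, and -0.13 as the median over its probes, which did not pass) and Mcm6 (-0.70), thymidylate synthase (Tyms, -0.54) and Birc5 (-0.49), while the marker Mki67 did not pass (-0.10). Of 15 cholesterol synthesis genes 2 fell and 2 rose. Fdft1, which makes squalene, rose by 0.50, and did not pass with median centring (0.30) or without the ZT4 and ZT12 pairs (0.44). Of 10 injury markers 3 passed higher and 3 lower. Havcr1 (KIM-1) rose by 0.39 and Vcam1 by 0.53, neither of which passed with median centring (0.04 and 0.44), and for Havcr1 the median over its probes was 0.057, which did not pass, and Krt18 fell by 0.63.

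Clock genes varied over the day at both ages. Arntl was lowest at ZT8 in both, at -1.80 and -1.79, and highest at ZT20, at 0.97 and 1.14, and its mean did not differ past the threshold (0.11 ± 0.09). Of the 20 core clock genes 6 passed higher and 2 lower, against 20.7% and 22.9% of all genes, and with median centring 0 passed higher and 2 lower. Without the ZT4 and ZT12 pairs 0 passed higher and 1 lower, with 0.51 for Nr1d2 (adjusted p = 0.0808) and 0.48 for Per2 (adjusted p = 0.0884). The largest difference was in Nfil3, a repressor of the output genes, which fell by 0.88 ± 0.14 (SE; adjusted p = 0.00203) in its brightest probe and by 0.25, which did not pass, in its other. Nr1d2 rose by 0.56 ± 0.12, Per2 by 0.51 ± 0.12 in one probe and 0.39 in the other, and Cry2 by 0.42. Cry1 fell by 0.33 in its brightest probe, and its other probe did not pass (0.11). Tef, Hlf and Usp2 rose by 0.32, 0.24 and 0.39, and had -0.28, -0.21 and -0.09 with median centring. Leaving out 1 pair ended the calls of Tef, Hlf and Usp2 (differences of 0.18 to 0.37 where lost), of Cry1 without ZT12 (-0.26), and of Cry2 without ZT12 (0.43) or ZT16 (0.41). Cry1 also did not pass without both the ZT4 and ZT12 pairs (-0.27). Among those that did not pass were Clock (-0.04), Npas2 (0.12), Per1 (0.39), Per3 (0.14), Nr1d1 (0.44), Rora (0.15), Dbp (-0.32), Ciart (-0.18), Bhlhe40 (0.18) and Bhlhe41 (0.10). In Cy5 alone none of the 20 passed higher and 2 passed lower. Over the times of day Dbp spanned 3.35 at 10 weeks and 3.46 at 20 weeks.

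**Figure D5:**
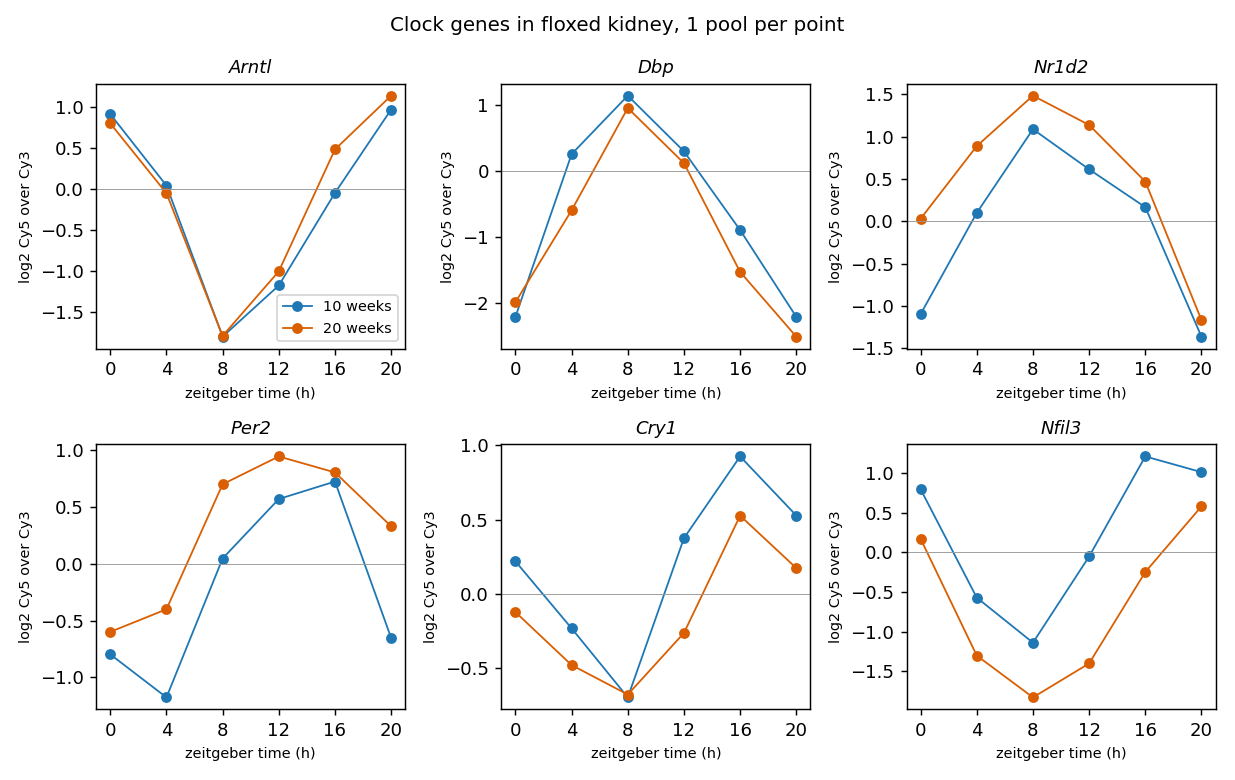
Log2 Cy5 over Cy3 (y axis) by zeitgeber time in hours (x axis) for Arntl, Dbp, Nr1d2, Per2, Cry1 and Nfil3, 1 point per pool, by age. Arntl is lowest at ZT8 and highest at ZT20 at both ages, and the Nfil3 points of 20 weeks lie below those of 10 weeks at all 6 times.

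Some large differences were mainly differences in Cy3. The clearest were Cox17, a copper chaperone of the mitochondrion, and Klf2, a transcription factor of endothelium. One Cox17 probe was higher by 1.62 (adjusted p = 0.0273), with -1.36 in Cy3 and -0.05 in Cy5, and the other was lower by 0.49. One Klf2 probe was higher by 1.44 (adjusted p = 0.0463), with -1.41 in Cy3, and the other was lower by 0.77. These high probes had their lowest value on the same array, 10-week ZT0, at -2.99 and -2.90, and so did NAP106897-1 at -2.89, which was higher by 1.64 with -2.36 in Cy3. Without the ZT0 pair Klf2 was 0.86 (adjusted p = 0.0532), and it also lost its call without ZT4, ZT8 or ZT12 (1.30 to 1.58). Cox17 lost its call without ZT4 (1.46) or ZT12 (1.62), and NAP106897-1 likewise (1.52 and 1.53). Without both the ZT4 and ZT12 pairs these were 1.25, 1.43 and 1.35, and none passed. BC012020 was higher by 1.51 in one probe and 1.42 in the other, with 0.01 in Cy5, and did not pass with median centring (0.68). Mchr1 (1.68) was measured on a single 10-week array, since its spots on the others were excluded, so its value rests on 1 of 6 pairs. On the lower side Vpreb1 (-1.15), Col8a1 (-1.09), BX515732 (-1.02), Coa7 (-0.97) and Mif4gd (-0.95) each moved by 0.58 to 0.93 in Cy3 and by less in Cy5.

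Probes of one gene did not always give one answer. Of 6294 genes with at least 2 tested probes, at least 1 probe passed in 4474. All probes passed higher in 508 and lower in 307, and probes passed with opposite signs in 580. Of 72 such genes whose brightest probe was over 2-fold, 27 had all probes past the threshold with one sign, 22 had one sign with some not passing, and 23 had both signs. Among those in agreement on the higher side were the drug pump Abcb1b (0.82 and 0.83), the steroid hydroxylase Cyp2d9 (0.95 and 0.92) and Phldb2 (0.77). With median centring Cyp2d9 (0.34) and Phldb2 (0.39) did not pass.

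The same contrast in Mop3fxfxCreAlb kidney, on 12 other arrays with the same reference pool, called 6190 genes (33.6%), 2648 higher (14.4%) and 3542 lower (19.2%). Its 20-week arrays lay on the same 3 slides as those of mice without Cre. Its 10-week ZT0 and ZT4 arrays also shared a slide with theirs. Its 10-week ZT8 to ZT20 arrays lay on a slide of their own. At ZT4, ZT8, ZT16 and ZT20 its 20-week arrays lay on other slides than theirs. The 2 genotypes thus share a part of any difference between slides, and what it adds to the values below was not tested. Cidea was lower by 2.29 there, Ucp1 by 2.24, Slc22a7 by 1.67, Slc22a26 by 1.33 and Car15 by 1.40, and Slc7a12 was higher by 2.60, Apob by 1.73 and Slc22a8 by 1.18. The test of the difference between the genotypes' age differences called 0 of 18409 genes in limma, with a smallest adjusted p of 0.471 and 1759 genes at an unadjusted p under 0.05, and no age difference is called particular to mice without Cre. Repeat-bearing probes rose there too, with 88 probes of at least 8 bases over 4-fold higher on the 20-week ZT20 array.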

How the data were processed

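Kidney RNA was hybridised to 2-colour Agilent arrays. The deposited files hold spot intensity per dye and a log10 ratio of red (Cy5) over green (Cy3) from Agilent Feature Extraction 9.1.3.1, per the file headers. The deposited table of log10 values equals the scanner ratio (largest difference 0; array medians 0 to 0.00867). Printed probe sequences are those of the deposited scanner files. Of 41174 probes, 24375 were named by RefSeq accession, 6301 by symbol, 2426 by synonym and 8072 as in the files.

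Mean intensities were background corrected (normexp, offset 50) and loess normalized within arrays, with control spots at weight 0 and outlier spots left out, in limma 3.58.1 (R 4.3.3). Replicate spots were averaged per probe. A probe was tested if well above background in both dyes on at least 6 of the 12 arrays, and the brightest tested probe stands for its gene. The fit had a term per time and 1 for age. P-values were Benjamini-Hochberg adjusted over all probes, threshold 0.05. Each dye alone was normexp corrected and quantile normalized. "Median centring" replaces loess by subtraction of each array's median. On simulated data with this comparison's residual spread over 26873 probes, 53 of 100 changes of 0.5 and 92 of 100 changes of 1 log2 unit were recovered, with 6 false calls. The noise was independent between probes and arrays, no slide difference was simulated, and far fewer probes changed than were called in the data. The simulation therefore cannot say how many of the real calls are false.

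The pools of one age differ in time and in mice. Nothing in the labels describes repeat pools at a time, so p-values measure the spread between these pools after the time term, and the number of arrays limits the precision. Sexes of the mice are not in the labels used here.

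The comparison and the gene lists were chosen with earlier results of these data known. Genes were named by rule: the 12 largest differences each way that held in 6 of 6 pairs and were larger in Cy5, the 5 largest each way that were larger in Cy3, genes whose probes agreed (6 each way) or disagreed (4), up to 4 members per list with the smallest p, and all fat, sex-chromosome and clock genes. A few genes that the rule names are not reported here. Abcc3, C1ra, Ciita, Egr1, Fos, Mki67, Ren1, Igf2, Pigr, Papss2, Idh1, Gnas and Gnpda1 were named after their values were seen. Alternatives covered the time term, slide, scaling, filters, probe choice, deposited ratios and left-out pairs; those without the ZT4 and ZT12 or ZT16 and ZT20 pairs, without repeat-bearing probes and with the deposited ratio were chosen after seeing the data.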

Additional observations from a re-analysis of the deposited data

Results flagged for a closer look

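In 16 of 285 groups of 6 pools (5.61%), each a named gene at one age, the highest or lowest pool stood far from the other 5 by Dixon's test at the 95% level, which chance alone gives in about 1 in 20 groups. The 10-week ZT0 array held 6 of these pools. Its log2 Cy5 over Cy3 was the lowest of its age for Cox17 (-2.99), Klf2 (-2.90), NAP106897-1 (-2.89), Cry2 (-1.32) and C4b (-0.55), and the highest of its age for Slc36a2 (0.43). The 20-week ZT4 array, one of the arrays with Xist signal, held 4: Cyp4a14 (2.08), Gsta1 (1.96), Fdft1 (0.34) and Cyp2j13 (-0.90). At 20 weeks ZT0 stood apart for Apob (1.0) and H2-Ab1 (0.16), ZT16 for Mzb1 (0.80) and ZT20 for Slc22a8 (-0.08). At 10 weeks ZT12 stood apart for Ucp1 (-0.79) and ZT20 for Ninl (-0.03).

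Signal of Xist, which no comparison uses, appeared on 20-week arrays above its 10-week range. The probe of the highest signal gave 5.93 at ZT4 and 3.24 at ZT12, another gave 2.80 and 1.55, and a further one gave 1.66 at ZT4.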

How the results depend on the processing

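The count of genes that passed was 8024, and under each alternative the genes were counted anew. It was 5250 with the ZT0 and ZT4 pairs alone, 2443 without the ZT4 and ZT12 pairs and 4229 at an adjusted p of 0.01 in limma. Tested against 0.5 log2 units it was 9, and with single pairs left out 5442 to 8434. Without the pairing by time (no replicate block) it was 8452, and the calls of the clock genes Nfil3, Nr1d2, Per2, Cry1, Tef, Hlf and Usp2 were lost. The count of genes over 2-fold was 252, and it too was taken anew each time. It was 744 with Agilent's processed signals, 756 with the deposited ratio, 890 with median centring and 495 with the ZT0 and ZT4 pairs. Without ZT4 and ZT12 it was 101, without repeat-bearing probes 150, and with single pairs left out 149 to 278. Members of the gene lists past the threshold numbered 214, and 142 with median centring, 84 without ZT4 and ZT12 and 148 to 218 with single pairs left out. In Cy5 alone (3223 genes) median scaling gave 68, slide as a random block 0 (2822 at an unadjusted p under 0.05 in limma), leaving out ZT16 and ZT20 1568, and single pairs 1118 to 3270. In Cy3 alone (5088 genes) these were 88, 0 (1994 at an unadjusted p under 0.05 in limma), 1723 and 3165 to 6203, and 7946 without ZT4 and ZT12. The genotype comparison called 0 genes under every alternative run, with 848 to 2422 at an unadjusted p under 0.05 in limma. Median centring turned the sign of Cpt1a (-0.0081), Hlf (-0.21), Hspa8 (-0.23), Tef (-0.28), Timd2 (-0.060) and Usp2 (-0.090). The median over all probes turned Ppp1r14c (0.64), and the ZT0 and ZT4 pairs alone turned ENSMUST00000103416 (-0.36). Of 143 genes with values in the text, 37 lost their call with median centring and kept their sign. The 6 called genes that turned there did not pass either. The call was lost by 41 genes without ZT4 and ZT12, 11 with slide as a random block and 24 without some single pair. No called gene turned its sign except as named. Genes that had not passed turned too, 7 of them with median centring. Where the construction of an alternative does not show it, the cause was not tested.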
